A study of Mus musculus with 2 samples.

Results

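S100 proteins are small calcium-binding proteins found in vertebrates, and the genes described here are S100a8, S100a9, S100a1, S100a4, S100a6, S100a10, S100a11 and S100a13. The genes were chosen by symbol, as every probe that the scanner files assign to one of these 8 names, and they are 8 of 17 S100 genes and of 30163 named genes on the array. The expression of these genes was measured on 2 single-colour arrays hybridised with RNA from cultured bone marrow mononuclear cells of C57BL/6 mice (strain C57/Bl6J in the labels). The NYT array carried RNA of a culture given ninjin'yoeito (NYT), a herbal drug, and the control array RNA of a culture given none. Both cultures began from marrow that was washed out of femurs of 2- to 4-month-old animals, using a medium that held 2% fetal bovine serum, and both were harvested at day 11. No genetic change is named for either culture. The sources used here state neither the dose of NYT, nor the number of animals, nor whether the cultures shared animals, so the arrays may stand for pooled or single animals. With 1 array per group there was no spread between cultures, no test and no p-value, and every difference below is one between these 2 arrays.

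Most S100 proteins form dimers. Each subunit folds into a pair of EF-hand motifs, helix-loop-helix structures in which the loop wraps around a calcium ion, and calcium binding opens a surface that grips a target protein. In bone marrow the family is best known for S100a8 and S100a9, whose products pair to form calprotectin, the main calcium-binding protein of the neutrophil cytosol, also made by monocytes. Released calprotectin withholds zinc and manganese from microbes and acts on receptors of innate immunity. The other members act mostly inside cells, through annexins, myosin, and proteins of secretion and calcium transport.

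The probes of S100a1 and S100a8 read the calcium-binding part of the messages themselves. Of 39429 probes of 60 bases, 7 (0.0178%) translate to an open frame with the canonical 12-residue EF-hand loop. S100a1 and S100a8 each have such a probe. Both are printed 5′ to 3′ because they show what the array detected in the members at opposite ends of the range below, and the capitals mark the 36 bases of the loop. The S100a1 probe, its second one, lies at chr3:90315191-90315250 on the minus strand, and the S100a8 probe at chr3:90473778-90473837 on the plus strand (mouse build mm9, per the file headers).
S100a1: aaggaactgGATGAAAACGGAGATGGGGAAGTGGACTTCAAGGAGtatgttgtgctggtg
S100a8: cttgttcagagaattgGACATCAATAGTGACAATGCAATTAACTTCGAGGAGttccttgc
The capitals run over bases 10 to 45 in the S100a1 probe and over bases 17 to 52 in the S100a8 probe. The longest stretch that probes of different members share is 11 bases, among the 10 probes of the 8 genes.

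All 8 genes were measured well above background on both arrays. S100a1 was higher on the NYT array, S100a8 and S100a11 were lower, and S100a9, S100a6, S100a4, S100a10 and S100a13 lay within 2-fold. The gene probes as a whole were dimmer on the NYT array, with a 75th percentile of 728.0 intensity units on the NYT array and 1475.6 on the control array. The spike-in control probes were not dimmer to that extent. Of the 8 well above background on both arrays, 1 was 2.25 higher on the NYT array before scaling. The others differed by -0.12 to 0.24. Why the gene probes were dimmer was not tested. The intensities given below are as deposited, before scaling. The differences are NYT minus control on the log2 scale after each array's 75th percentile was subtracted, unless called unscaled. This scaling adds 1.02 to each unscaled difference. Over the 16996 genes measured on both arrays, the median scaled difference was 0.29 and the median unscaled difference -0.73, so a member near 0 on the scaled measure sat slightly below the middle of all genes. The scanner's error model gave each member's difference an SD of 0.20, and probes printed repeatedly had a median SD of the difference of 0.053 (246 probes). Both cover the measurement of these arrays and not the variation between cultures.

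Of the 8 members, 2 were at least 2-fold lower and 1 was higher, with a median of 0.1. Among all 16996 genes, 11.0% were at least 2-fold lower and 11.2% at least 2-fold higher. The members' shares, over 8 genes, are not read as a result about the set. Without scaling, 4 members were lower (S100a8, S100a9, S100a6 and S100a11) and 1 higher, against 36.4% and 1.24% of all genes. A floor of 5000 in geometric mean intensity, set after the values were seen, was passed by all 8 members. Among the 3935 genes over it, 4.68% were lower and 12.1% higher, with a median of 0.46. The percentiles of the differences were 8.4 for S100a8, 8.8 for S100a11, 26.1 for S100a9, 32.1 for S100a6, 49.3 for S100a4, 59.0 for S100a10, 69.6 for S100a13 and 99.5 for S100a1.

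**Figure D1:**
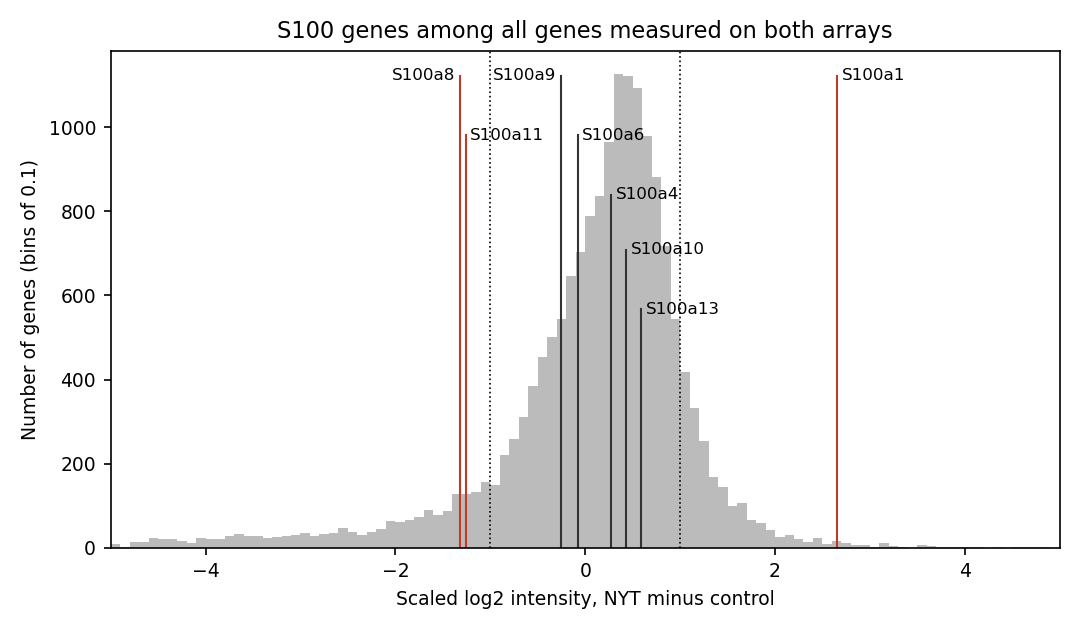
Number of genes by scaled log2 difference, NYT minus control, in bins of 0.1, with the 8 S100 genes as lines and the 2-fold limits dotted. S100a8 and S100a11 lie in the lower tail at -1.32 and -1.26, S100a1 in the upper tail at 2.65, and the other 5 inside the limits.

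**Figure D2:**
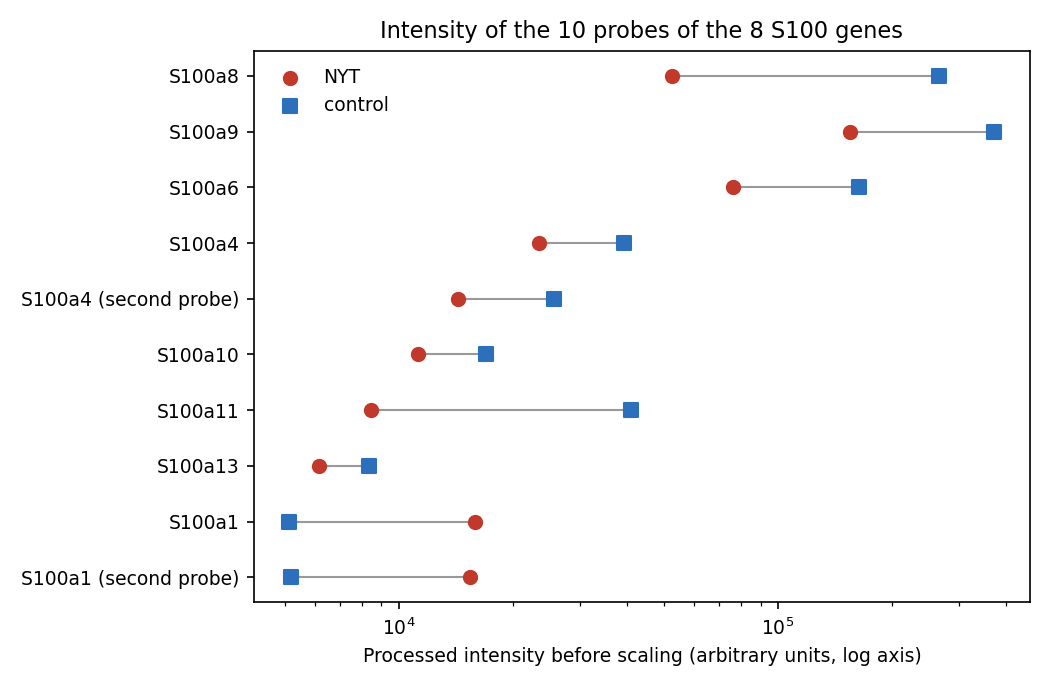
Processed intensity before scaling (arbitrary units, log axis) of the 10 probes of the 8 S100 genes, with red circles for the NYT array and blue squares for the control array. S100a1 is the gene whose NYT points lie to the right of its control points, in both of its probes, while S100a8 and S100a11 have the widest gaps in the other direction. Distances between genes are not comparisons of level, since each probe has its own response.

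S100a8 was lower on the NYT array, while S100a9 was within 2-fold. S100a8 had an intensity of 52596.9 on the NYT array, against 266262.4 on the control array. This is a difference of -1.32, or 2.5-fold lower after scaling, and 5.06-fold lower without scaling. S100a9 had 154861.3 on the NYT array, against 372481.7 on the control array. Its difference was -0.25, or 1.19-fold lower, which is close to the error-model SD, and it was 2.41-fold lower without scaling. The 2 genes' differences lay 1.07 apart (error-model SD 0.29), so S100a8 was 2.1-fold lower relative to S100a9, and the gap was -1.0, -0.91 and -1.06 (S100a8 minus S100a9) under loess, quantile normalization and normexp background correction. The size of the S100a9 difference depended on the scaling: it was -1.05 after quantile normalization and -0.94 after loess, against -1.95 and -1.94 for S100a8. No spot was saturated. S100a9 reached 26.1% of the scanner's saturation value on the NYT array and 60.6% on the control array. In bulk RNA, fewer cells of a type and less RNA per cell cannot be told apart.

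The upstream sequences of S100a8 and S100a9 are shown because these genes are paired in function but differed here. RefSeq (GRCm38.p6) promoter sequences were matched by symbol for 7 of the 8 genes, S100a10 being the gene named only. Each run covers the 250 bases before the transcription start, 5′ to 3′ on the gene's own strand, at chr3:90668821-90669070 (plus strand) for S100a8 and chr3:90695722-90695971 (minus strand) for S100a9.
S100a8: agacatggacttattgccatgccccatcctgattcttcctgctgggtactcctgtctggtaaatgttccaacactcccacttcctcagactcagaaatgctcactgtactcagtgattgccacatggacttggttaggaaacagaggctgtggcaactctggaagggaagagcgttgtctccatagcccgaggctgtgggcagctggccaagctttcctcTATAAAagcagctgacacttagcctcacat
S100a9: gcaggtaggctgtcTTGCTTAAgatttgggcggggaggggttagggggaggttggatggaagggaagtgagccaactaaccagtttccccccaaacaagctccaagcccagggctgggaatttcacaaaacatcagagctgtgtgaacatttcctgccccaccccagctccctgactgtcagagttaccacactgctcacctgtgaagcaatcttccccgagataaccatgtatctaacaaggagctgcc
Capitals mark the letters TATAAA, at -30 to -25 from the start of S100a8, and a match of TTGCNNAA, the core of C/EBP sites, at -236 to -229 from the start of S100a9. Matches on both strands were counted for the C/EBP core TTGCNNAA, for AGGAAG as the ETS core, for the TATA box TATAAA, for the CCAAT box with those letters, and for GGGCGG as the GC box. They do not overlap in these 2 promoters. S100a8 also holds 2 matches of the ETS core and S100a9 1 GC box. Among 32851 mouse promoters of the same length, TTGCNNAA occurs in 9.56%, TATAAA in 12.4%, the ETS core in 29.5%, CCAAT in 33.8% and the GC box in 32.7%. In the other members, S100a4 has TATAAA at -31 to -26, S100a11 holds 3 GC boxes, S100a6 1 CCAAT box and S100a4 also 1 ETS core, and S100a1 and S100a13 hold no match of the 5 motifs. These are letters in a window and not measured binding.

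Among 7 factors that act on S100a8 and S100a9 in myeloid cells, 2 were at least 2-fold lower and 0 higher, with a median of 0.2. Cebpe, which drives the late steps of granulocyte maturation, had 938.4 intensity units on the NYT array and 18146.2 on the control array, a difference of -3.25. Cebpd, a C/EBP factor induced in inflammation, had 5407.3 on the NYT array and 33064.5 on the control array, a difference of -1.59. Cebpb was 0.44 and Hif1a, the hypoxia-inducible factor subunit, -0.6. The 3 remaining factors, Cebpa, Spi1 and Stat3, were each at 0.2, although the second probe of Stat3 gave -0.65.

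S100a8 and S100a9 were measured beside genes of neutrophil granules and metal withholding, of which 6 of 8 were at least 2-fold lower and 0 higher, with a median of -2.98. Camp, the cathelicidin, had 5140.8 intensity units on the NYT array and 127928.0 on the control array, a difference of -3.62. Ltf, the iron-binding lactoferrin, had 7093.8 on the NYT array and 146886.3 on the control array, a difference of -3.35. Ngp (-3.2) and Mpo, the myeloperoxidase of azurophil granules (-3.06), were next. Elane was -0.37 and Slc11a1, a metal transporter that macrophages also make, 0.63. On the scaled measure S100a8 at -1.32 thus sat nearer 0 than 6 of these 8 genes, and S100a9 at -0.25 nearer than all 8. The place of S100a9 turned on the scaling. Without scaling it was -1.27, against -0.39 for Slc11a1 and -1.39 for Elane. After quantile normalization S100a8 was -1.95 and S100a9 -1.05.

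Markers of cell types were read in the same way, since a culture of mononuclear cells holds several types. Of 16 neutrophil markers, 15 were at least 2-fold lower and 0 higher. Their summed intensity was 59969.0 on the NYT array and 485526.2 on the control array, and none was below background. Sums here and below are before scaling, so they include the lower signal of the gene probes on the NYT array (75th percentile 728.0 against 1475.6). The brightest probes weigh most in them. Ly6g, the defining surface marker, had 262.7 on the NYT array and 6591.2 on the control array. Among the brightest, Chil3 was -2.15 and Csf3r, the G-CSF receptor, -0.44. Monocyte markers were at least 2-fold lower in 3 of 7 measured genes and higher in 0, the 3 being Ccr2 at -4.33, Fn1 at -4.14 and F13a1 at -2.6. Csf1r, the receptor for M-CSF, was within 2-fold at -0.89 by its brightest probe, but its 3 probes ran from -1.38 to -0.49. Vcan was -0.51, and -2.67 at its second probe. The median of the monocyte markers was -0.89, and -1.59 with the mean over probes. Their summed intensity was 61675.7 on the NYT array and 257463.0 on the control array, and the gene Ly6c2 has no probe on the array. Macrophage markers were mixed, with 5 of 9 measured genes lower, 2 higher and Vsig4 detected on the control array only. The lower ones were the complement genes C1qa at -5.21, C1qb at -3.74 and C1qc at -3.58, with Mrc1 at -1.97 and Adgre1 at -1.01. The higher ones were Gpnmb at 1.65 and Cd68 at 1.18, which were 0.63 and 0.16 without scaling. The summed intensity of the macrophage markers was 398140.0 on the NYT array and 555585.1 on the control array. Gpnmb alone gave 244613.9 and 158027.5 of these. The part of these markers in the S100a8, S100a9 and S100a11 results was not tested.

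Lists of other cell types were counted in the same way. Mast cell and basophil markers had a summed intensity of 271.3 on the NYT array and 45204.6 on the control array, with 3 of 3 measured genes lower (Mcpt8 at -6.63, Hdc at -5.59) and Fcer1a detected on the control array only. Stroma and fibroblast markers had 1490.6 on the NYT array and 24460.7 on the control array, with 4 of 5 measured genes lower, Col1a2 at -4.39 and Col1a1 at -5.33, and 3 of 8 genes detected on the control array only. T cell markers had 2810.1 on the NYT array and 16287.7 on the control array, with 2 of 4 measured genes lower, Cd3d at -4.93 and Cd3g at -3.64, and Cd4 within 2-fold at -0.76. Cd8a and Cd8b1 were detected on the control array only. B cell markers had 15746.6 on the NYT array and 37816.7 on the control array, with 1 of 5 lower, Ebf1 at -1.05. The brightest, Cd79b at -0.5 and Ms4a1 at 0.36, were within 2-fold. Erythroid markers were measured in 2 of 5 genes, both lower (Gata1 at -3.86, Epor at -3.39), with a sum of 504.5 on the NYT array and 13540.4 on the control array, and Klf1 and Alas2 were below background on both. The general leukocyte markers Ptprc, Coro1a, Laptm5 and Cd53 were detected on both arrays, and Coro1a was -1.15, Ptprc -0.95, Cd53 0.75 and Laptm5 0.91. How far any of these moved with an S100 gene was not tested.

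Proteins through which S100A8 and S100A9 act outside the cell were slightly below the middle of all genes (0.29), with 0 of 7 measured genes lower, 1 higher and a median of 0.04. Cd36, a scavenger receptor that binds the heterodimer with its fatty acid load, had 18982.4 on the NYT array and 19138.8 on the control array. Its difference of 1.01 was -0.01 without scaling and 0.69 after quantile normalization. Ly96, the MD-2 subunit of the endotoxin receptor, was at 0.72 and Tlr4, its partner, at 0.25. Cd14, the co-receptor, had 6324.8 on the NYT array and 19184.5 on the control array, a difference of -0.58. Ager, the RAGE receptor, was well above background on the control array only, with a bound of at least 1.41-fold lower with NYT, which does not reach 2-fold.

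Of the members whose products partner annexins, S100a10 and S100a11 differed from each other although they lie side by side. S100a10 joins annexin A2 in a heterotetramer that carries plasminogen activation to the cell surface, and it has lost calcium binding. It had 11247.7 on the NYT array and 16978.6 on the control array, a difference of 0.43. S100a11, a partner of annexin A1 in membrane repair and growth control, had 8420.8 on the NYT array and 40893.9 on the control array. Its difference of -1.26 was 2.4-fold lower after scaling and 4.86-fold lower without. The gap between the 2 genes was 1.69 (S100a10 minus S100a11), a 3.22-fold difference in change, and 1.71 after loess and 1.73 after quantile normalization. Their probes lie at 93330022-93330081 (S100a11) and 93368437-93368496 (S100a10) on chromosome 3, both on the plus strand, and span 38475 bases of mm9 with no probe of another gene placed between.

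The annexins and Ahnak, a large scaffold bound by S100a10 with annexin A2, had 9 of 9 measured, 1 higher, 0 lower and a median of 0.53. The median was 0.29 over all genes and 0.46 over the 3935 genes with a geometric mean intensity over 5000. After quantile normalization the list was at 0.25 and all genes at 0.2. Anxa4 had 31022.9 on the NYT array and 23899.0 on the control array, a difference of 1.4. Without scaling it was 0.38. Anxa1, the partner of S100a11, had 95071.7 on the NYT array and 110050.5 on the control array, a difference of 0.81, and Anxa2, that of S100a10, had 60815.1 on the NYT array and 110333.7 on the control array, a difference of 0.16. Anxa7 was 0.99 and Anxa5 0.71. Probes disagreed for Anxa11 (-0.46 and 0.53) and for Ahnak (from 0.08 to 1.55 over 4 probes).

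S100a6, S100a4 and S100a13, which have other partners inside the cell, lay within 2-fold. S100a6, calcyclin, which binds the ubiquitin-pathway protein Cacybp, had 76126.2 on the NYT array and 163228.3 on the control array, a difference of -0.08. S100a4, which binds the heavy chain of non-muscle myosin, had 23356.5 on the NYT array and 39142.5 on the control array at its brighter probe, a difference of 0.27, and its second probe gave 0.18. S100a13, which takes part in release of Fgf1 and Il1a outside the classical secretory route, had 6167.8 on the NYT array and 8334.0 on the control array, a difference of 0.59. Their differences turned on the scaling, since S100a6 was 2.14-fold lower without scaling. S100a4 and S100a13 were -0.74 and -0.43 without scaling.

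A list of intracellular binding partners was mixed, with 10 of 15 measured, 1 lower, 1 higher and a median of 0.29. Besides partners of these 3 genes it holds targets of S100a1 and genes of plasminogen activation. Fgf1, the growth factor released with S100a13, was dim, with 29.7 on the NYT array and 308.6 on the control array, a difference of -2.36 that became -0.9 under normexp. Plau, the urokinase that activates plasminogen, had 2204.6 on the NYT array and 1369.2 on the control array, a difference of 1.71, against 0.69 without scaling. Myh9, the myosin heavy chain bound by S100a4, had 23667.8 on the NYT array and 94276.8 on the control array, a difference of -0.97. Sugt1, a chaperone adaptor that S100a6 binds, was 0.64. Cacybp was 0.62 and Il1a 0.59. Ryr1, the muscle calcium channel that S100a1 binds, was detected on the control array only, with a bound of at least 3.25-fold lower with NYT.

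S100a1, best known in heart and skeletal muscle where it raises calcium release and uptake, had the largest difference of the 8 members. Its brighter probe had 15892.4 on the NYT array and 5146.9 on the control array. The difference was 2.65, or 6.26-fold higher after scaling and 3.09-fold higher without. The second probe, the one printed above, gave 15405.2 on the NYT array and 5195.5 on the control array, a difference of 2.59. The 2 probes differed by less than the error-model SD. Its difference lay at the 99.5th percentile of all genes, and it stayed between 1.25 and 2.66 under 11 other settings, past 2-fold in all 11. The members at opposite ends, S100a1 and S100a8, differed by 3.97 on the log2 scale, a 15.6-fold difference in change.

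S100a1 and its neighbour S100a13 differed by 2.06 (S100a1 minus S100a13; 2.04 after loess and 2.03 after quantile normalization) although they are transcribed away from each other with 104 bases between their starts. The stretch between the starts is shown because both genes start at its ends, S100a1 running left on the minus strand and S100a13 right on the plus strand. It lies at chr3:90514331-90514434 (GRCm38.p6, RefSeq) and is written on the plus strand.
S100a1 to S100a13: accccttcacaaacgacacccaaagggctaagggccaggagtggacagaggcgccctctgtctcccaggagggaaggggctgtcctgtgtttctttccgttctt
It holds 3 CpG dinucleotides and 58.7% G and C, and no match of the CCAAT box or the GC box.

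**Figure D3:**
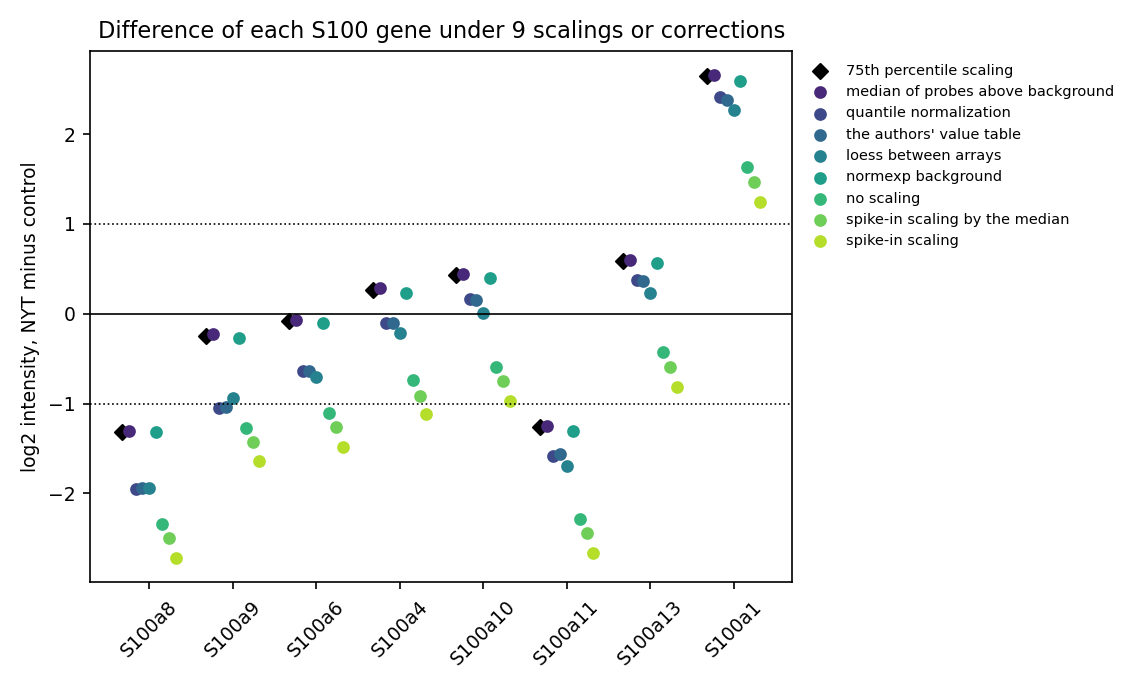
The log2 difference, NYT minus control, of each S100 gene under 9 scalings or corrections, with black diamonds for 75th percentile scaling and dotted lines at 2-fold. S100a8 and S100a11 stay below -1 and S100a1 above 1 in every one of the 9, while S100a9, S100a6, S100a4, S100a10 and S100a13 cross a limit or 0 with the scaling.

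Of the 9 other S100 genes on the array, 5 were measured on both arrays. S100a2 had 30.3 on the NYT array and 173.4 on the control array, a difference of -1.5, which was -0.38 under normexp. S100a16 had 572.8 on the NYT array and 2049.0 on the control array, a difference of -0.82, and -1.74 at its second probe. S100a3 had 24.7 on the NYT array and 80.9 on the control array, a difference of -0.69. S100b was -0.54 and S100a5 0.09. Under normexp S100a3 was 0.38 and S100b 0.4, so the direction of both turned with the background correction. S100a7a, S100a14, S100g and S100z were not well above background on either array.

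On chromosome 3 the members lie in order S100a1, S100a13, S100a4, S100a6, S100a8, S100a9 in one cluster and S100a11, S100a10 in the next. The probes of the first cluster span 181674 bases (90314959 to 90496632 of mm9), with no probe of a gene outside the S100 family placed between. Within it the probes used lie at 90314959-90315018 on the minus strand for S100a1, 90328442-90328501 for S100a13, 90409908-90409967 for S100a4 and 90418160-90418219 for S100a6, these 3 on the plus strand, and 90496573-90496632 on the minus strand for S100a9. S100a8 and S100a9 lie next to each other, as do S100a11 and S100a10, and the differences of neighbours were -1.32 against -0.25 and -1.26 against 0.43.

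**Figure D4:**
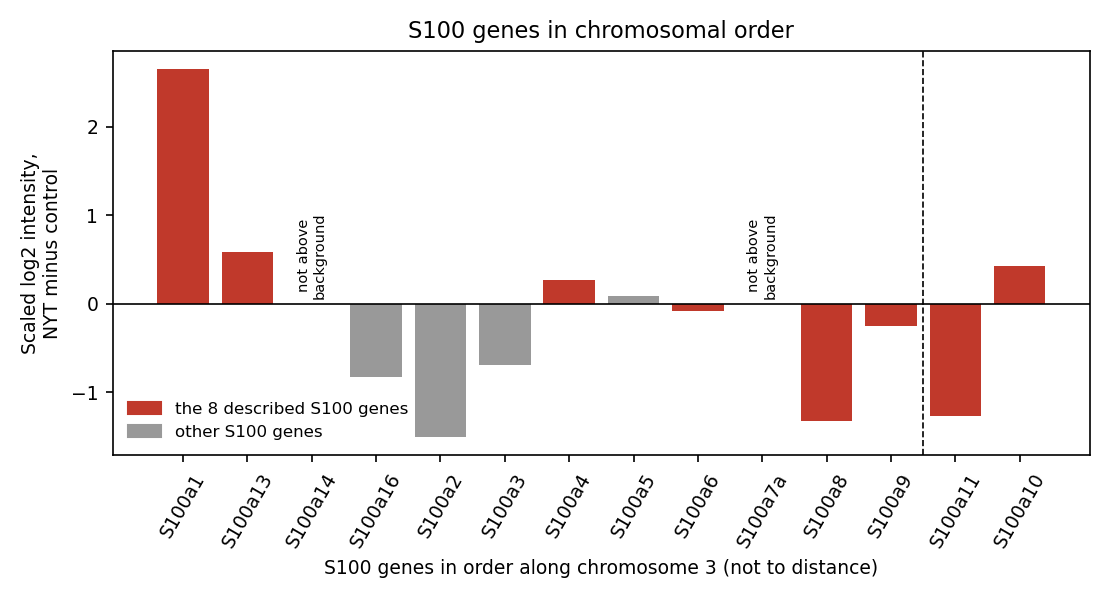
Scaled log2 difference, NYT minus control, of the S100 genes in order along chromosome 3, not to distance, with red bars for the 8 described genes and grey bars for others, and a dashed line where the genes of the S100 family are interrupted. S100a1 at 2.65 stands beside S100a13 at 0.59, and S100a11 at -1.26 beside S100a10 at 0.43.

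Other EF-hand proteins that sense calcium lay near the middle of all genes, with 17 of 18 measured, 1 lower, 1 higher and a median of 0.22. Aif1, a calcium-binding protein of macrophages, had 7752.2 on the NYT array and 63881.9 on the control array, a difference of -2.02. Ppp3r1, the regulatory subunit of calcineurin, had 6168.1 on the NYT array and 6069.1 on the control array, a difference of 1.04 that was 0.02 without scaling. Calm3, a calmodulin gene, was 0.94 (0.29 at its second probe).

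**Figure D5:**
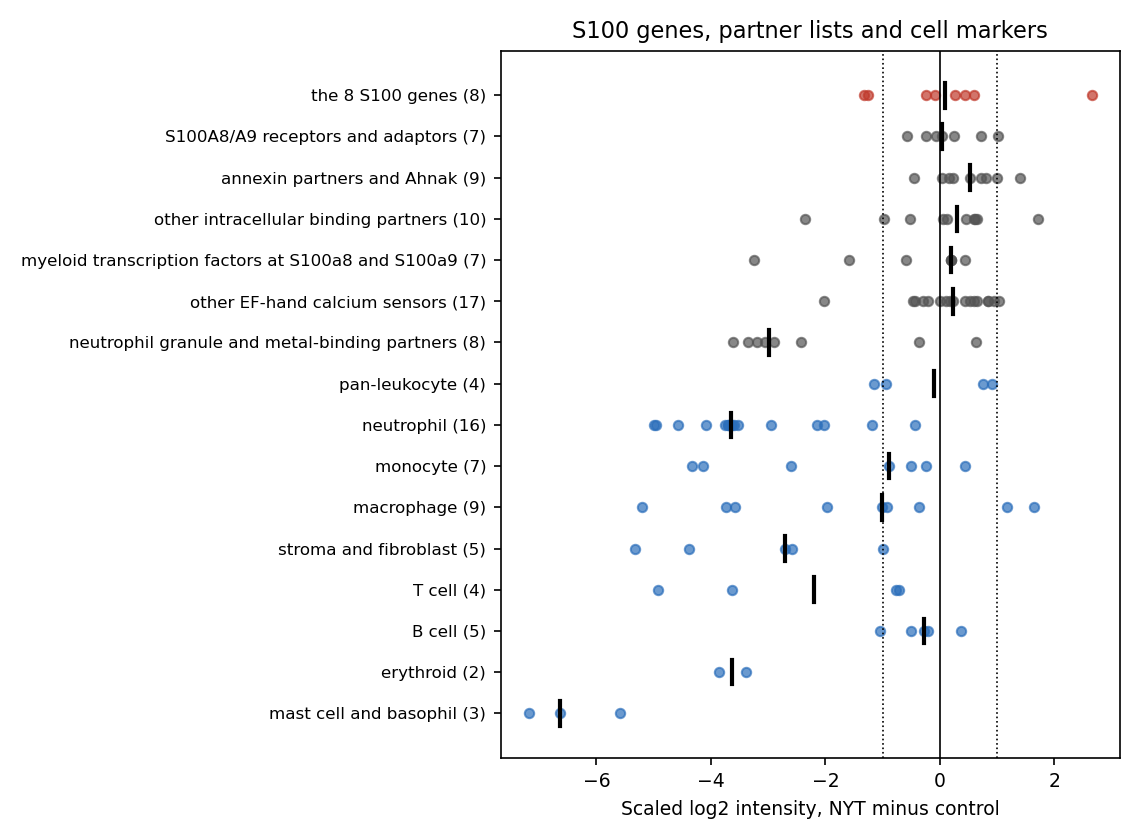
Scaled log2 difference, NYT minus control, of each measured gene, by list, with the number of genes in parentheses, a black bar at the median and dotted lines at 2-fold. The 8 S100 genes (red, median 0.1) spread from -1.32 to 2.65, while the neutrophil granule list (grey, median -2.98) and the neutrophil markers (blue, median -3.65) lie mostly below the limit.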

How the data were processed

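Gene expression was measured on 1 NYT and 1 control Agilent array (Cy3), both on the same slide. The deposited spot intensity is the scanner software's processed signal, spatially detrended and not scaled between arrays, per the file headers. The headers give the software as Agilent Feature Extraction version 10.7.1.1 and the submitters' processing notes as 9.5.1.1. The labels and the design text name different RNA kits. The authors' own table of intensity values, with a median of 72.0 in both columns, had a Spearman rank correlation of 0.999996 (NYT) and 0.999961 (control) with its own array and at most 0.934875 when crossed. It is linear, not centred and normalized between arrays. Its further making is not stated.

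Control spots and outlier flags (165 spots on the NYT array, 258 on the control array) were left out, log2 intensities were averaged over a probe's spots, and the 75th percentile of the array was subtracted. Of 39421 probes with a spot on both arrays, 22753 (57.7%) on the NYT array and 24506 (62.2%) on the control array were well above background. Over 50% of a probe's spots had to carry that flag. For each gene the brightest probe that passed on both arrays was used. A gene detected on 1 array has a bound against the dim array's lowest signal above background or the dim probe's own, whichever is higher. Names came from a RefSeq table (GRCm38.p6), 26754 probes by accession, 3814 by symbol and 639 by synonym, and 8214 kept the files' name. Genes were counted at a 2-fold difference. R 4.3.3, limma 3.58.1 and Python 3.11.15 were used, and the counting was tested on simulated data.

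Named were all S100 genes, the 4 largest differences in each partner list with genes bound past 2-fold on 1 array, the 2 brightest markers of each cell type on the control array (others shown were chosen after their values were seen), the 3 genes nearest S100a8 and S100a9, and genes lying between S100 probes. Some genes that this rule took are left out of the text. The members and lists were chosen with earlier results of these data known. The number of arrays limits the precision. The alternatives were no scaling, the median of probes above background, quantile normalization, loess, spike-in scaling, normexp (offset 50), the authors' table, the mean over probes, no filter on dim probes, another flag and a 3-fold threshold.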

Additional observations from a re-analysis of the deposited data

Results flagged for a closer look

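The spike-in probe E1A_r60_a107, a control spot outside the gene measurements, had a log2 intensity of 8.57 on the NYT array and 6.32 on the control array before scaling, 2.25 higher on the NYT array. The other 7 of the 8 spike-ins well above background on both arrays differed by -0.12 to 0.24. The 75th percentile scaling used for the S100 genes does not read these spots, and the difference has no replicate. The alternative spike-in scaling takes the mean of the 8 spike-ins, this one included. S100a4 was -1.12 under that mean, past 2-fold, and -0.91 with the spike-in median.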

How the results depend on the processing

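Of 12 other settings, none changed the direction of S100a1, S100a8 or S100a11, and 11 kept all 3 past 2-fold. The 3-fold threshold ended the calls of S100a8 and S100a11. The S100 differences and list medians below moved by more than the error-model SD (for genes) or the SD over genes (for lists). Counts of members and of all genes have no such SD and are given for comparison, as is the median of all genes. The cause was not tested. The spike-in median was chosen after seeing the data. The differences of S100a1, S100a10, S100a11, S100a13, S100a4, S100a6, S100a8 and S100a9, in this order, were 2.27, 0.01, -1.7, 0.23, -0.21, -0.7, -1.94 and -0.94 with loess, 1.63, -0.59, -2.28, -0.43, -0.74, -1.1, -2.34 and -1.27 without scaling, and 2.41, 0.16, -1.58, 0.38, -0.1, -0.64, -1.95 and -1.05 with quantile normalization. They were 1.25, -0.97, -2.66, -0.81, -1.12, -1.48, -2.72 and -1.64 with spike-in scaling, 1.47, -0.75, -2.44, -0.59, -0.91, -1.26, -2.5 and -1.43 with the spike-in median, and 2.38, 0.15, -1.56, 0.37, -0.1, -0.64, -1.94 and -1.04 in the authors' table. Members at least 2-fold lower were 0 at a 3-fold threshold, 4 without scaling, 5 with spike-in scaling, 4 with its median, and 3 by quantile normalization or the authors' table. All genes higher were 507 at 3-fold, 950 with loess, 4755 without the dim filter, 211 without scaling, 3577 with another flag, 125 with spike-in scaling and 166 with its median. All genes lower were 1167 at 3-fold, 3414 without the dim filter, 6190 without scaling, 9712 with spike-in scaling and 7485 with its median. List medians without scaling, with spike-in scaling and with its median were -1.3, -1.67 and -1.46 for B cell markers, -0.98, -1.36 and -1.14 for receptors, -0.49, -0.86 and -0.65 for annexins, -4.65, -5.02 and -4.81 for erythroid markers, -7.64, -8.02 and -7.8 for mast cell markers (-5.7 with normexp), -0.8, -1.18 and -0.96 for EF-hand sensors, and -1.71, -2.09 and -1.87 for other S100 genes (0.09 without the dim filter, 0.38 with normexp). Spike-in scaling gave -1.2 for the myeloid factors, -5.05 for neutrophil markers, -1.1 (its median -0.89) for intracellular partners and -1.5 (-1.28) for general leukocyte markers. The erythroid median turned to 0.56 without the dim filter. The median of all genes was 0.29 as scaled, -0.73 without scaling, -0.02 with loess, 0.2 with quantile normalization, -1.11 with spike-in scaling and -0.89 with its median. No paired analysis was possible because there was 1 array a group and no test, and no array could be left out. Low signal over background limits the dim S100 genes.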

Other observations

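The genes whose difference lay nearest to that of S100a8 over the 2 arrays were Abca2, Arhgap45 and Cib2, and those nearest to S100a9 were Slc25a47, Txndc16 and Mga. With 2 arrays this likeness rests on 1 number per gene, and 119 genes lay within 0.05 of S100a8 and 556 within 0.05 of S100a9.

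Between the outermost S100 probes of chromosome 3 (90314959 to 93368496 of mm9) lay probes assigned to 76 other genes, of which 21 were measured, 4 at least 2-fold higher and 0 lower, with a median of 0.51. Over all genes 11.2% were at least 2-fold higher, and none of the 4 was past 2-fold without scaling. The largest was a probe the files name Mif, at 1.53, with an intensity of 78148.2 on the NYT array and 54859.5 on the control array. The next, at 1.42, starts at 91828756, close to the Mif probe at 91828902, so the 4 may not be separate loci. Another of the 4 was dim, with 45.8 on the NYT array and 42.5 on the control array. RefSeq places the gene Mif on another chromosome, so the placement is that of the probe alone.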
